A study of Homo sapiens with 40 samples.

Results

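Oxidative phosphorylation is carried out by 5 protein complexes of the inner mitochondrial membrane whose subunits come from 2 genomes. The genes described here were chosen by symbol from a table of 12655 genes: all protein-coding genes of mitochondrial DNA, and the nuclear genes whose symbols name a subunit of complex I (NDUFA, NDUFB, NDUFC, NDUFS and NDUFV), complex II (SDH), complex III (UQCR and CYC1), complex IV (COX) or the ATP synthase (ATP5). This gave 91 genes, 13 mitochondrial and 78 nuclear. Complex I had 7 mitochondrial and 37 nuclear members, complex II had 4 nuclear members, complex III 1 and 9, complex IV 3 and 10, and the ATP synthase 2 and 17. The remaining nuclear member, ATP5IF1, encodes an inhibitor of the ATP synthase. NDUFA4, named for complex I, was counted with complex IV, to which its protein belongs. The rule did not match COX4I1, a core subunit of complex IV, or COX7A2L. All 91 members passed the filter on low counts in both cell lines.

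Complexes I and II pass electrons from NADH and succinate to ubiquinone, complexes III and IV pass them on to oxygen, and the proton gradient that complexes I, III and IV build drives the ATP synthase. The mitochondrial genome encodes core subunits of complexes I, III, IV and of the ATP synthase, and none of complex II. It is transcribed in the mitochondrion by its own polymerase, POLRMT, from long precursors on each strand, whereas the nuclear genes are transcribed in the nucleus one at a time and their proteins imported.

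RNA came from spheroids of 2 human squamous carcinoma lines that carry Dendra2, a fluorescent protein converted by light from green to red, and that the labels otherwise give as wildtype. Kyse30 was derived from squamous cell carcinoma of the oesophagus, FaDu from a tumour of the hypopharynx. Spheroids were kept for 72 h in type I collagen in 5 groups of 4 samples per line: serum-free medium, 9 nM EGF with cells then recovered as a non-invasive and an invasive group by photoconversion and sorting, EGF with 10 µg/mL cetuximab (an antibody against the EGF receptor), and EGF with 100 nM AZD6244 (an inhibitor of the kinase MEK). Each treatment used 40 spheroids, and samples of the remaining 3 groups are labelled unselected. Sample titles name serum only for the serum-free group, which is called without serum in places below. They do not say whether the other groups had serum. The non-invasive and invasive groups were named from the sample titles. A further label on cell selection gives photoconverted invasive cells for both of them. A comparison of non-invasive cells with serum-free spheroids therefore mixes EGF with the selection of cells, and the 2 cannot be told apart. Likewise, a comparison of an inhibitor group with non-invasive cells mixes the inhibitor with that selection. Nor can fewer cells of a kind be told from less RNA per cell. No label says that replicates were separate cultures. P-values set the difference between groups against the spread of these samples, and that spread may be technical.

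The squamous label was checked on KRT5, KRT14, KRT6A, TP63, EPCAM, SFN, DSP and PERP, of which 8 of 8 were in the table. Their summed level was 3261 to 5890 CPM (a gene's counts relative to all counts of its library) in FaDu and 1119 to 3387 in Kyse30. In FaDu DSP stood at 903 to 2765, SFN at 474 to 3081, PERP at 314 to 1279 and EPCAM at 98.2 to 169 CPM. Kyse30 had 201 to 639, 120 to 1269, 451 to 1019 and 151 to 393 CPM of the same genes. In Kyse30 the basal markers were low, with KRT14 at 0 to 0.734 CPM, KRT5 at 0 to 15.1 CPM and TP63 at 0 to 25.4 CPM. In FaDu KRT14 was low as well, at 0 to 19.7 CPM, with KRT5 at 44.1 to 1238 CPM and TP63 at 12.4 to 66.1 CPM. Of fibroblast markers 1 of 6 was in the table, COL1A1, at 3.14 to 24.9 CPM in FaDu and 0 to 15.6 CPM in Kyse30. Of leukocyte markers 1 of 4 was, CD68, at 0 to 10.4 and 0.306 to 54.0 CPM, and of endothelial markers 1 of 3, CDH5, at 0 to 5.47 and 0 to 32.8 CPM. FaDu libraries totalled 2312126 to 5669262 counts. Those of Kyse30 totalled 2538447 to 4534339, except that invasive replicate 1 had 463124. That library and the non-invasive Kyse30 replicates 1 and 3 also stood apart in MALAT1, a nuclear non-coding RNA. It took 8.18%, 6.27% and 9.63% of their counts, 0.798% to 3.26% in the other Kyse30 libraries and 0.667% to 2.87% in FaDu. Kyse30 counts of members called are given with all libraries, without the shallow library, and without these 3 libraries. The last choice was made after the data were seen. It leaves 2 non-invasive libraries, those with the lowest mitochondrial shares of that group, and so in itself shifts the mitochondrial values of comparisons with that group.

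In FaDu the mitochondrial mRNAs took a smaller share of the counts, and the nuclear subunit mRNAs a larger one, in non-invasive EGF-treated cells than in serum-free spheroids. The 13 mitochondrial members held 6.12%, 6.95%, 6.93% and 6.56% of the counts in the 4 serum-free libraries and 4.45%, 3.27%, 3.91% and 5.18% in the non-invasive ones. The 78 nuclear members held 1.12%, 1.11%, 1.15% and 1.09% in serum-free spheroids and 1.41%, 1.45%, 1.35% and 1.23% in non-invasive cells. Neither share overlapped between the groups. The ratio of mitochondrial to nuclear counts was 5.93 ± 0.324 (SD, n = 4) without serum and 3.13 ± 0.819 in non-invasive cells. The difference of the mean log2 ratios was −0.96 with a pooled SD of 0.27, a ratio 1.94-fold lower. Taken on the median member of each genome in place of the sum, the difference was −0.51.

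The ratio was also low under both inhibitors, which were given together with EGF. With cetuximab the mitochondrial share was 3.93%, 5.21%, 3.23% and 3.37% and the nuclear share 1.54%, 1.39%, 1.64% and 1.52%. The ratio was 2.33-fold lower than in serum-free spheroids, without overlap (log2 difference −1.22, pooled SD 0.29). With the MEK inhibitor 3 of 4 libraries had 3.51% to 5.21% mitochondrial and 1.46% to 1.59% nuclear counts, below and above every serum-free library. The first had a mitochondrial share of 6.85%, within the serum-free range, and a nuclear share of 1.09%, just under the lowest serum-free library. MALAT1 was also highest in that library, at 2.87% against 1.15% to 1.65%, and its part in the result was not tested. The log2 ratio under the MEK inhibitor differed from serum-free by −0.79 with a pooled SD of 0.46 and overlapped it. Invasive cells had mitochondrial shares of 4.09% to 5.43% and nuclear shares of 1.19% to 1.45%, which overlapped those of non-invasive cells. The 2 mitochondrial ribosomal RNAs, which are not members, stood at 8.52% ± 0.374 of counts without serum and 5.08% ± 0.853 in non-invasive cells.

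**Figure D1:**
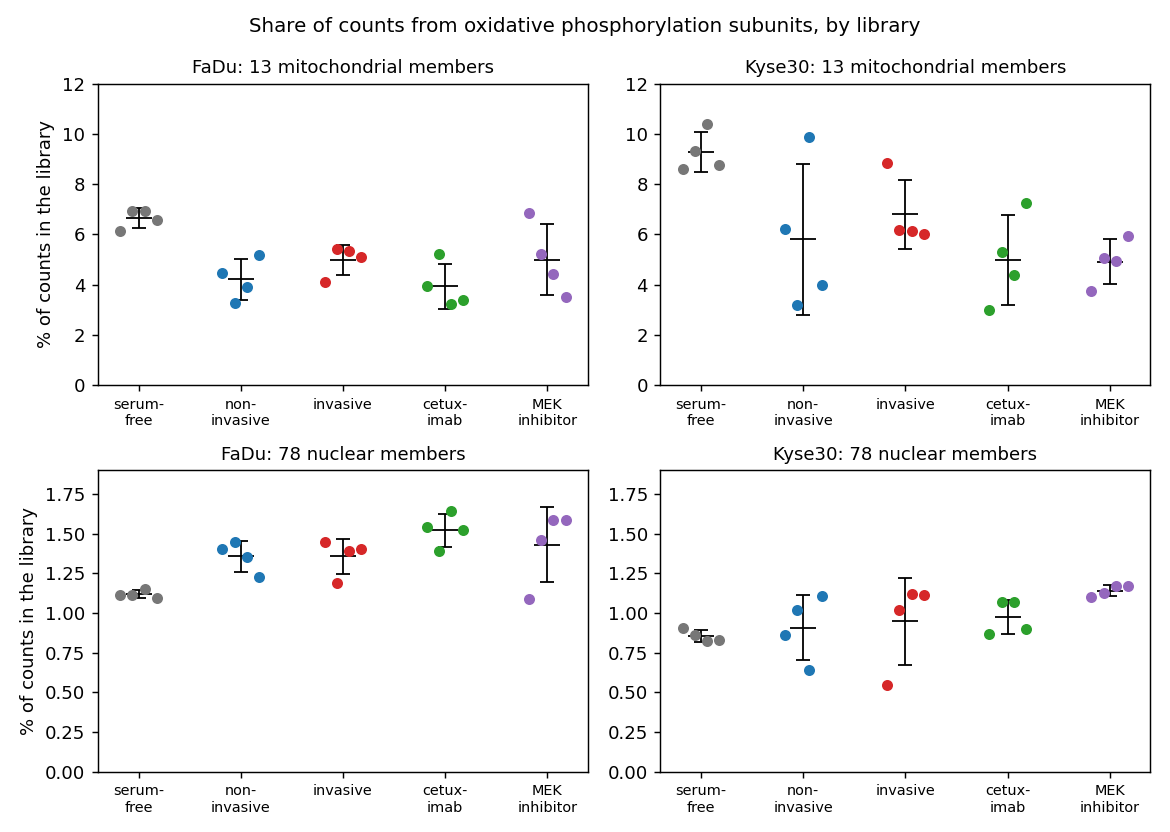
Share of all counts (%) from the 13 mitochondrial (top) and 78 nuclear members (bottom) in every library of FaDu (left) and Kyse30 (right), by group; points are libraries, and horizontal lines with error bars are group means ± SD (n = 4). In FaDu the serum-free libraries sit at 6.12% to 6.95% for the mitochondrial members, above all non-invasive libraries, and at 1.09% to 1.15% for the nuclear members, below all non-invasive libraries.

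In Kyse30 the serum-free spheroids had the highest mean mitochondrial share of the 5 groups. It was 8.62%, 9.31%, 10.4% and 8.75% without serum, 3.00%, 5.28%, 4.38% and 7.26% with cetuximab and 3.73%, 5.05%, 4.94% and 5.94% with the MEK inhibitor. Neither inhibitor group overlapped the serum-free group. The nuclear share was 0.905%, 0.862%, 0.826% and 0.830% without serum, 0.867% to 1.07% with cetuximab and 1.10% to 1.17% with the MEK inhibitor. The ratio was 10.9 ± 1.26 (SD, n = 4) without serum, 2.22-fold lower with cetuximab (log2 difference −1.15, pooled SD 0.39) and 2.54-fold lower with the MEK inhibitor (−1.35, pooled SD 0.21), both without overlap.

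The selected Kyse30 cells split by library. Non-invasive replicates had mitochondrial shares of 6.22%, 3.17%, 9.87% and 3.96%, and nuclear shares of 0.863%, 1.02%, 0.639% and 1.11%. Replicates 1 and 3, high in mitochondrial and low in nuclear counts, are the libraries high in MALAT1. Invasive replicates had mitochondrial shares of 8.86%, 6.18%, 6.14% and 6.02% and nuclear shares of 0.544%, 1.02%, 1.12% and 1.11%, and again the library with most MALAT1 stood apart. The part of MALAT1-rich RNA in these shares was not tested. The log2 ratio of non-invasive cells differed from serum-free by −0.86 with a pooled SD of 0.76, and the groups overlapped. Replicates 1 and 3 had the highest ratios of the non-invasive group. Without them the mean of the 2 libraries left differed from serum-free by −1.69.

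**Figure D2:**
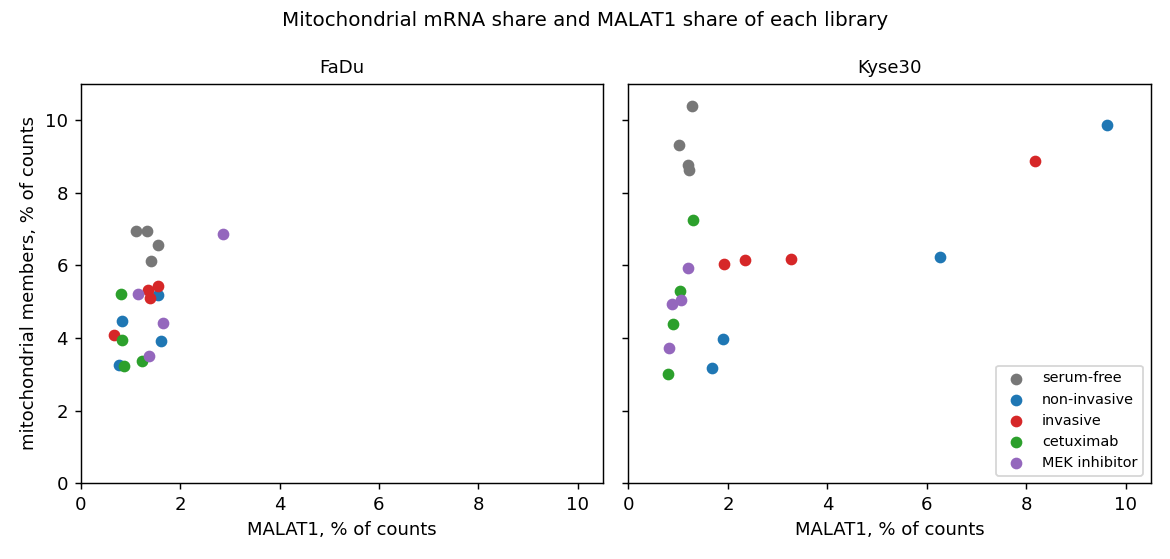
Mitochondrial members' share of counts (%) against that of MALAT1 (%) in each library of FaDu (left) and Kyse30 (right), coloured by group. In Kyse30 the 3 libraries with 6.27% to 9.63% MALAT1 sit at 6.22% to 9.87% on the mitochondrial axis, while the other non-invasive libraries sit at 3.17% and 3.96%.

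The counts of the 13 mitochondrial genes did not move as a block in FaDu, though both members called higher have limits of measurement given below. At a Benjamini-Hochberg adjusted p under 0.05 in edgeR's quasi-likelihood test over all genes, 4 of 13 were lower and 2 of 13 higher in non-invasive cells than in serum-free spheroids, with a median log2 fold change of −0.34. Over all genes tested 24.7% were lower and 25.3% higher, with a median of −0.02. Calls below use the same test and threshold, and all levels are CPM scaled with TMM factors.

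The lower calls included 2 of the 3 mitochondrial subunits of complex IV. MT-CO2, which carries the copper centre that takes electrons from cytochrome c, stood at 8061, 9368, 9792 and 8945.5 CPM in serum-free spheroids, 4292, 3434, 3561 and 4784 CPM in non-invasive cells, 3615, 3738, 5728 and 5421 CPM in invasive cells, 4065, 3264, 3209 and 3793 CPM with cetuximab, and 7777, 6297, 5281 and 4583 CPM with the MEK inhibitor. Every serum-free library was above every other library. MT-CO2 fell by 1.17 ± 0.16 (log2, SE) in non-invasive cells (adjusted p = 1.41e-06). MT-CO3 went from 13502 ± 444 (SD, n = 4) to 7251 ± 1457 CPM, a log2 change of −0.90 ± 0.18 (adjusted p = 0.000137). MT-CO1, the catalytic subunit, had a log2 fold change of −0.34 (adjusted p = 0.137).

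In complex I, MT-ND4, a proton-pumping subunit, fell by 0.73 ± 0.17 (adjusted p = 0.000696), and in complex III MT-CYB, the cytochrome that reduces and oxidises ubiquinone, fell by 0.64 ± 0.21 (adjusted p = 0.0133, and 0.0502 without the second non-invasive replicate). The higher calls were both in complex I. MT-ND4L stood at 401, 529, 529 and 438 CPM in serum-free spheroids and 1073, 764, 765 and 915 CPM in non-invasive cells, without overlap (log2 0.89 ± 0.19, adjusted p = 0.000504). MT-ND4L and MT-ND4 share 1 mRNA and their reading frames overlap by 7 bases (chrM:10470-10766 and chrM:10760-12137 in GENCODE v29, GRCh38), yet their counts were called in opposite directions. MT-ND4 is the 3′ part of that mRNA and the kit reads 3′ ends, so it is uncertain which RNA the MT-ND4L counts measure. The sources used here do not say how counts of the shared mRNA were divided between them.

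MT-ND6 is the member encoded on the opposite strand from the rest (chrM:14149-14673), and its mRNA is known to lack the poly(A) tail on which the kit primes. It stood at 51.5, 76.0, 49.1 and 63.0 CPM in serum-free spheroids, 156, 141, 112 and 148 CPM in non-invasive and 184, 189, 146 and 172 CPM in invasive cells. All libraries of these selected cells were above all serum-free libraries, and MT-ND6 rose by 1.21 ± 0.36 in non-invasive cells (adjusted p = 0.00963). MT-CYB and MT-ND5 lie on the other strand beside it, and the sources used here do not say whether counting used the strand. The other 6 mitochondrial members had log2 fold changes of −0.40 (MT-ND5), −0.37 (MT-ATP6), −0.34 (MT-ATP8), −0.33 (MT-ND3), −0.05 (MT-ND2) and 0.12 (MT-ND1), none called. MT-ATP8 and MT-ATP6, the ATP synthase members, overlap by 46 bases and likewise share an mRNA.

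Cetuximab-treated FaDu spheroids, against the same serum-free libraries, had 5 mitochondrial members lower and 2 higher (21.1% and 22.7% of all genes), with a median of −0.52. The lower ones were MT-CO2 (−1.34 ± 0.16, adjusted p = 2.45e-07), MT-CYB (−0.95), MT-CO3 (−0.86), MT-CO1 (−0.74) and MT-ND4 (−0.63). The higher ones were MT-ND6 (1.07, adjusted p = 0.0228) and MT-ND4L (0.60, adjusted p = 0.014). Both were lost without the second cetuximab replicate, at adjusted p = 0.12 and 0.057. Of the 8 fits that left out 1 library, MT-ND6 was lost in 3 and MT-ND4L in 1. With the MEK inhibitor 5 members were lower and 0 higher (8.65% and 10.8% of all genes). These were MT-CYB (−0.63), MT-CO3 (−0.61), MT-CO2 (−0.60), MT-CO1 (−0.56) and MT-ND4 (−0.48), with adjusted p from 0.01 to 0.0406. This count fell to 0 without the fourth MEK inhibitor replicate, to 1 without the third and to 2 or 3 without the second or any serum-free replicate.

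**Figure D3:**
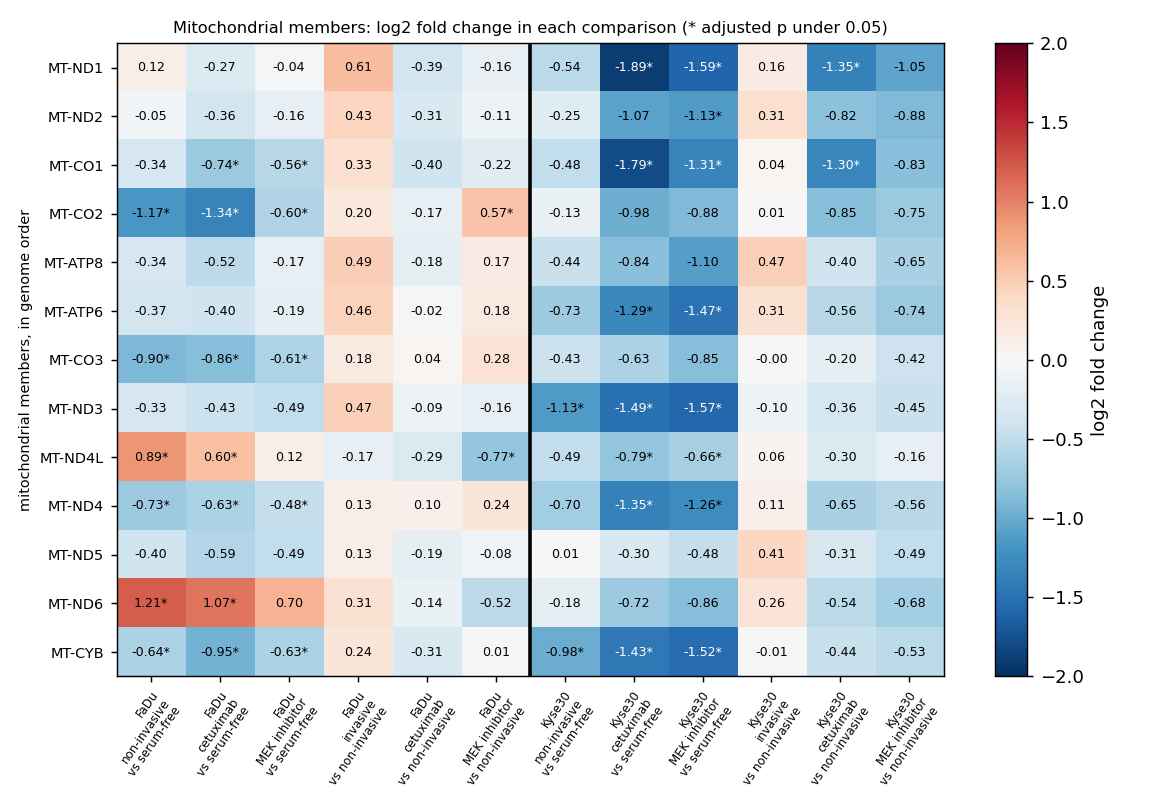
Log2 fold change of the 13 mitochondrial members (vertical, in genome order) in the comparisons of each line (horizontal), blue lower and red higher, with an asterisk at adjusted p under 0.05. In FaDu, MT-CO2 is at −1.17 while MT-ND4L and MT-ND6 are at 0.89 and 1.21 in non-invasive against serum-free cells.

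In Kyse30 the mitochondrial members called were all lower than in serum-free spheroids. Under cetuximab 7 of 13 were lower and 0 higher (1.25% and 1.88% of all genes), with a median log2 fold change of −1.07. MT-CO1 stood at 4422, 4291, 5378 and 3555 CPM without serum and 596, 1551, 1264 and 1701 CPM with cetuximab, which did not overlap (−1.79 ± 0.34, adjusted p = 0.0052). MT-ND1, the complex I subunit next to the ubiquinone site, fell by 1.89 ± 0.34 (adjusted p = 0.00275). MT-ND3 (−1.49), MT-CYB (−1.43), MT-ND4 (−1.35), MT-ATP6 (−1.29) and MT-ND4L (−0.79) were also lower. The count was 3 without the first cetuximab replicate, whose MT-CO2 level of 1376 CPM lay far below the 5155 to 8375 CPM of the others. MT-CO1, MT-ND1 and MT-ND3 were called whichever library was left out, while MT-ATP6 and MT-ND4 were each lost in 5 and MT-CYB and MT-ND4L in 3 of 9 such fits. Leaving out the shallow library, 8 members were lower and 0 higher, beside 6.42% and 8.73% of all genes.

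Under the MEK inhibitor 8 of 13 were lower in Kyse30 and 0 higher (1.61% and 2.29% of all genes), with a median of −1.13: MT-ND1 (−1.59), MT-ND3 (−1.57), MT-CYB (−1.52), MT-ATP6 (−1.47), MT-CO1 (−1.31), MT-ND4 (−1.26), MT-ND2 (−1.13) and MT-ND4L (−0.66). MT-ND1, MT-ND3, MT-CYB and MT-ATP6 were called whichever library was left out. MT-ND2 and MT-ND4L were each lost in 8 of 9 such fits, MT-ND4 in 7 and MT-CO1 in 6, with adjusted p up to 0.138. MT-ND3 stood at 9959, 12120, 13464 and 10616 CPM without serum and 3522, 3662, 3405.5 and 4909 CPM with the MEK inhibitor, so that every treated library was below every serum-free one. The count was 4 without the first MEK inhibitor replicate and 8 without the shallow library (6.9% of all genes lower). Without the 3 libraries high in MALAT1, none of which is in these groups but which enter the shared estimate of the spread, 10 members were lower with either inhibitor, beside 7.54% of all genes with cetuximab and 7.83% with the MEK inhibitor. The inhibitor groups had 0.798% to 1.31% MALAT1, against 1.01% to 1.27% in serum-free spheroids.

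Non-invasive Kyse30 cells had 2 of 13 mitochondrial members lower and 0 higher than serum-free spheroids (4.76% and 8.1% of all genes), MT-ND3 (−1.13 ± 0.28, adjusted p = 0.00865) and MT-CYB (−0.98 ± 0.32, adjusted p = 0.0417). MT-ND3 was called whichever library was left out. MT-CYB was lost in 8 of 9 such fits. Without the shallow library the count was 2 (11.9% of all genes lower), without the third non-invasive replicate 7, without the first 1, and without the 3 libraries 11 (10.1% of all genes lower), with a median of −1.30 against −0.48 with all of them. The last fit keeps 2 non-invasive libraries, those with the lowest mitochondrial shares of the group.

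Nuclear subunit genes of FaDu were called mostly in the higher direction. Against serum-free spheroids 30 of 78 were higher and 3 lower in non-invasive cells, 38.5% and 3.85% of them, beside 25.3% and 24.7% of all genes. Their median log2 fold change was 0.27. With cetuximab 37 were higher and 1 lower (22.7% and 21.1% of all genes; median 0.37), and with the MEK inhibitor 21 were higher and 0 lower (10.8% and 8.65%; median 0.30). The last count was 35 without the first MEK inhibitor replicate, the one high in MALAT1. These comparisons share the serum-free libraries.

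Nuclear genes of this kind are known to be controlled in part by the transcription factors NRF1, GABP (an ETS factor) and YY1, which bind close to the start site. Promoters from RefSeq (GRCh38.p14, 250 bases before to 50 after the start) were found for 64 of the 78 nuclear members and 9812 genes of the table. The letters GCGCNTGCG, an NRF1-type motif, were found on either strand in 22 of 64 members (34.4%) and in 15.6% of all. CCGGAAG, an ETS motif, was in 29.7% and 20.2%, and AAGATGGCG, a YY1-type motif, in 12.5% and 4.20%. The last letters of the ETS motif, AAG, are the first of the YY1-type motif, so those 2 can overlap. Among members higher in non-invasive FaDu cells 9 of 24 (37.5%) held the NRF1-type letters, and among the other members 13 of 40 (32.5%). The ETS letters ran the other way, in 6 of 24 (25%) and 13 of 40 (32.5%), and the YY1-type letters were in 4 of 24 (16.7%) and 4 of 40 (10%). A match is a description of the letters and no evidence of binding. The matches below belong to members whose values are described in the paragraphs that follow and were picked after those values were seen. Each is written 5′ to 3′ on the gene's strand with the motif in capitals and 10 bases on either side, and the distance given is that of the first capital from the start site.
SDHA, chr5:218145-218173, plus strand, −165: gtccgctttgCGCAGGCGCggcgccccca
NDUFS6, chr5:1801351-1801379, plus strand, −46: cagaagccgtGCGCATGCGttagcgctaa
NDUFS7, chr19:1383823-1383851, plus strand, −74: ttccggtttcCGCATGCGCtccgagccgc
NDUFA9, chr12:4649024-4649052, plus strand, −80: ttcttggttaGCGCTTGCGcagacaggcg
ATP5MC2, chr12:53676106-53676134, minus strand, −41: gcccgggtcaCGCATGCGCtgagccttcc
COX8A, chr11:63974592-63974618, plus strand, −18: agctccagaaCTTCCGGccagcgcagc
UQCRH, chr1:46303642-46303668, plus strand, −46: gtgtgccgcaCTTCCGGccagatcgcc
UQCRQ, chr5:132866578-132866604, plus strand, −54: atggtatctcCCGGAAGttacctcacg
The first 5 sites hold the NRF1-type letters and the last 3 the ETS letters. SDHA, NDUFS7 and ATP5MC2 carry theirs in the reverse orientation, as do COX8A and UQCRH, so the same motif stood in promoters of members called higher and of ATP5MC2, called lower. ATP5MC2 has 3 listed starts, of which the first was used. ATP5MC1 has none of the 3 motifs in this window.

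In complex I, 13 of 37 nuclear members were higher and 2 lower in non-invasive FaDu cells, beside 25.3% and 24.7% of all genes. NDUFS5, an accessory subunit, stood at 223, 234, 226 and 227 CPM in serum-free spheroids and 448, 500.4, 454 and 427 CPM in non-invasive cells. Its log2 fold change of 1.01 ± 0.11 (adjusted p = 1.37e-08) was the largest of the nuclear members in this comparison, and the groups were far apart. NDUFAB1, the mitochondrial acyl carrier protein, rose by 0.96 ± 0.17, NDUFS6, an accessory subunit whose promoter site is shown above, by 0.95 ± 0.15, and NDUFB9, an accessory subunit of the membrane arm, by 0.94 ± 0.14. NDUFB8 rose by 0.73. The lower calls were NDUFB1 (−0.55 ± 0.16, adjusted p = 0.0064) and NDUFB10 (−0.50 ± 0.12, adjusted p = 0.00137), both of the membrane arm. NDUFS1, the subunit with most of the iron-sulfur clusters, was at −0.29 (adjusted p = 0.0653), and NDUFV1, which binds NADH, at 0.16 (adjusted p = 0.297).

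In complex III 4 of 9 members were higher in non-invasive FaDu cells and 0 lower, beside the same 25.3% and 24.7% of all genes. They included CYC1, cytochrome c1 (0.80), and UQCRFS1, the Rieske iron-sulfur protein (0.45, adjusted p = 0.0251, lost in 4 of 8 fits that left out 1 library). UQCRC1, a core protein, was at 0.05 and not called. In complex IV 2 of 10 (20%) were higher and 0 lower, beside 25.3% and 24.7% of all genes: COX8A, a small subunit of the membrane part, and COX5A, a matrix subunit (0.69). COX8A stood at 112, 131, 135 and 127 CPM in serum-free spheroids and 233, 303, 226 and 229 CPM in non-invasive cells, without overlap (0.97 ± 0.17, adjusted p = 2.89e-05). NDUFA4 (0.48), COX5B (−0.30), COX7A2 (0.18) and COX6C (0.07) were not called.

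In the ATP synthase 10 of 17 nuclear members were higher and 1 lower in non-invasive FaDu cells, beside 25.3% and 24.7% of all genes. ATP5F1B, the catalytic beta subunit, rose by 0.63 (adjusted p = 0.00151), while ATP5F1A, the alpha subunit, was at 0.31 (adjusted p = 0.0847). ATP5IF1, the inhibitor, was at −0.07 and not called in any of the comparisons of FaDu with serum-free spheroids. With cetuximab the largest nuclear values against serum-free were NDUFS5 (1.23), ATP5MC1 (1.17), NDUFS6 (1.13), UQCRH, the hinge protein of complex III (1.06), and COX8A (1.04), and NDUFB1 was the 1 lower call (−0.42, adjusted p = 0.0364, lost in 5 of 8 fits that left out 1 library, with adjusted p up to 0.132). With the MEK inhibitor they were NDUFS5 (0.93), NDUFS7, which carries the last iron-sulfur cluster of complex I (0.74), COX8A (0.68), UQCRQ of complex III (0.68) and ATP5MK of the ATP synthase (0.66).

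**Figure D4:**
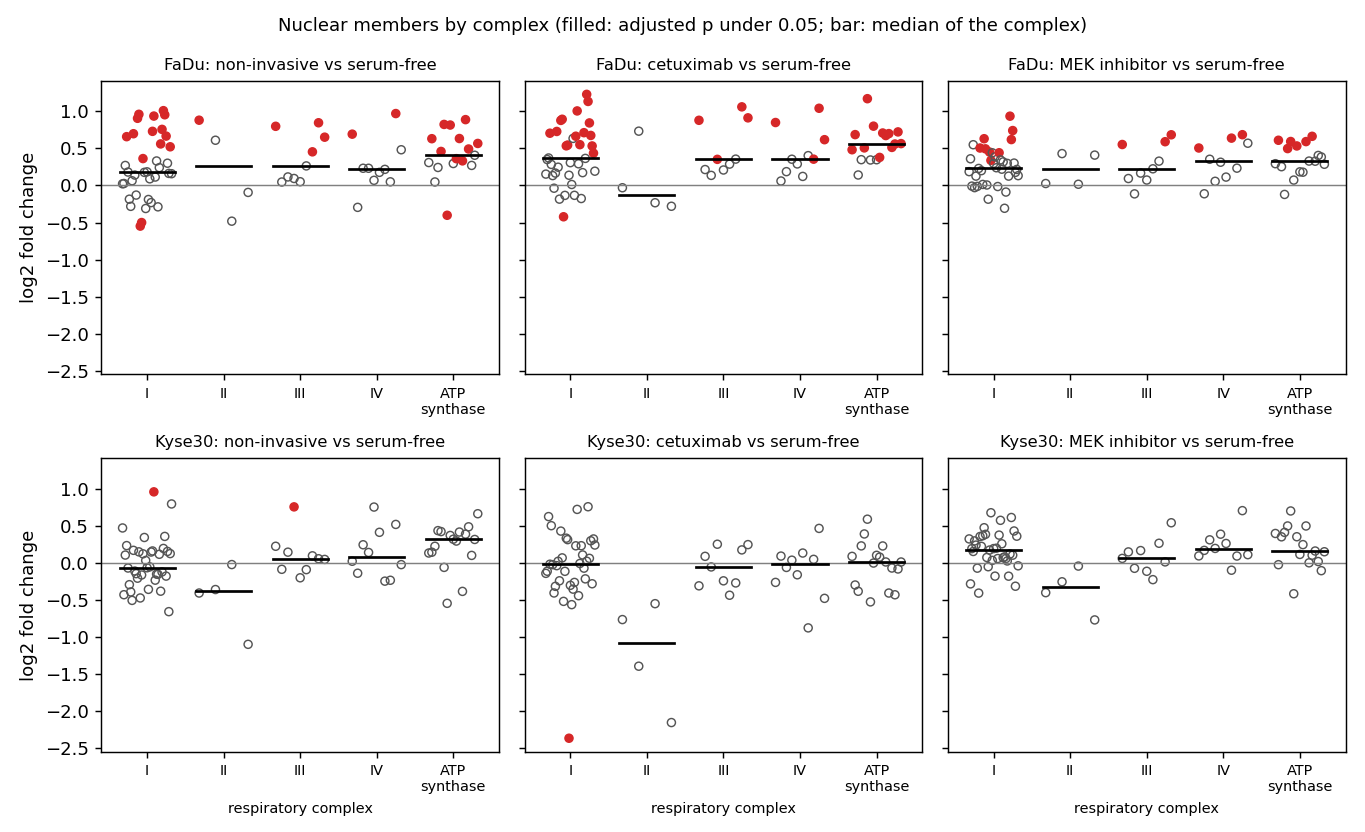
Log2 fold change of 77 nuclear members (ATP5IF1 is left out), grouped by complex, in FaDu (top) and Kyse30 (bottom), for comparisons with serum-free spheroids. Filled points have an adjusted p under 0.05 and bars are the median of a complex. In FaDu the ATP synthase has 10, 13 and 6 of 17 members higher in non-invasive cells, with cetuximab and with the MEK inhibitor. Of all genes 25.3%, 22.7% and 10.8% are higher in these comparisons. The comparisons of a line share its serum-free libraries.

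The 3 genes that encode the same mature c subunit of the ATP synthase rotor, ATP5MC1, ATP5MC2 and ATP5MC3, did not go together. ATP5MC1 (chr17:48892787-48895871, RefSeq GRCh38.p14) stood at 81.3, 75.3, 81.4 and 80.6 CPM in serum-free FaDu spheroids, 126, 169, 139 and 130 CPM in non-invasive cells and 166, 236, 161 and 155 CPM with cetuximab. ATP5MC3 (chr2:175176258-175181710) stood at 159, 171, 169 and 148 CPM, 281, 320, 285 and 253 CPM and 317, 214, 311 and 284 CPM in the same groups. Both were higher in every library of these 2 EGF-treated groups than in any serum-free library. In non-invasive cells ATP5MC1 rose by 0.82 ± 0.15 (adjusted p = 5.27e-05) and ATP5MC3 by 0.81 ± 0.14 (adjusted p = 1.77e-05).

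ATP5MC2 (chr12:53665170-53681423) stood at 232, 257, 243 and 220 CPM in serum-free spheroids, 198, 207, 166 and 149 CPM in non-invasive cells, 183, 135, 146 and 189 CPM in invasive cells, 294, 241, 361 and 311 CPM with cetuximab and 197, 273, 263 and 266 CPM with the MEK inhibitor. All libraries of selected cells were below all serum-free ones. It fell by 0.40 ± 0.14 in non-invasive cells (adjusted p = 0.0215, lost in 3 of 8 fits that left out 1 library, with adjusted p up to 0.0909). Against non-invasive cells it was higher with cetuximab (0.75 ± 0.14, adjusted p = 0.000918) and with the MEK inhibitor (0.47 ± 0.14, adjusted p = 0.0131, and 0.0606 without the fourth non-invasive replicate). Those comparisons share the non-invasive libraries. In Kyse30 ATP5MC1, ATP5MC2 and ATP5MC3 had log2 fold changes of −0.06, −0.55 and 0.37 in non-invasive against serum-free cells, none called.

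SDHA (chr5:218320-268746, RefSeq GRCh38.p14), the flavoprotein of complex II that oxidises succinate, set the selected FaDu cells apart from the other groups in every library. ATP5MC2, given above, did so in the lower direction, but for an overlap with the first MEK inhibitor replicate. SDHA stood at 40.4, 57.0, 57.6 and 60.0 CPM in serum-free spheroids, 98.6, 116, 97.2 and 85.9 CPM in non-invasive cells, 151, 128, 184 and 167 CPM in invasive cells, 56.7, 49.8, 49.0 and 55.7 CPM with cetuximab and 60.6, 64.3, 50.6 and 44.9 CPM with the MEK inhibitor. Invasive libraries were above all non-invasive ones, and those above all serum-free, cetuximab and MEK inhibitor libraries, which overlapped each other. SDHA rose by 0.88 ± 0.15 in non-invasive cells against serum-free spheroids (adjusted p = 2.49e-05). It was at −0.03 with cetuximab (adjusted p = 0.892) and 0.03 with the MEK inhibitor (adjusted p = 0.93) against serum-free. Against non-invasive cells it was lower with cetuximab (−0.91 ± 0.15, adjusted p = 0.000155) and with the MEK inhibitor (−0.85 ± 0.15, adjusted p = 9.06e-05).

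The groups high in SDHA are the selected ones, so EGF without an inhibitor and cell selection cannot be told apart for it. The other 3 members of complex II were not called in any of these comparisons, and SDHB, its iron-sulfur subunit, was at 0.61 (adjusted p = 0.31) in non-invasive cells. SDHA shares sequence with pseudogenes, of which SDHAP1 was at 0.479 to 11.1 CPM and SDHAP4 at 0.611 to 5.99 CPM in FaDu, so its counts are uncertain where reads could be assigned to either. In Kyse30 SDHA stood at 46.1, 46.2, 47.5 and 53.8 CPM in serum-free spheroids, 25.8, 30.1, 41.9 and 48.0 CPM in non-invasive cells and 0, 40.1, 54.1 and 51.1 CPM in invasive cells, the 0 being in the shallow library. These groups overlapped, and SDHA was at −0.41 (adjusted p = 0.597).

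**Figure D5:**
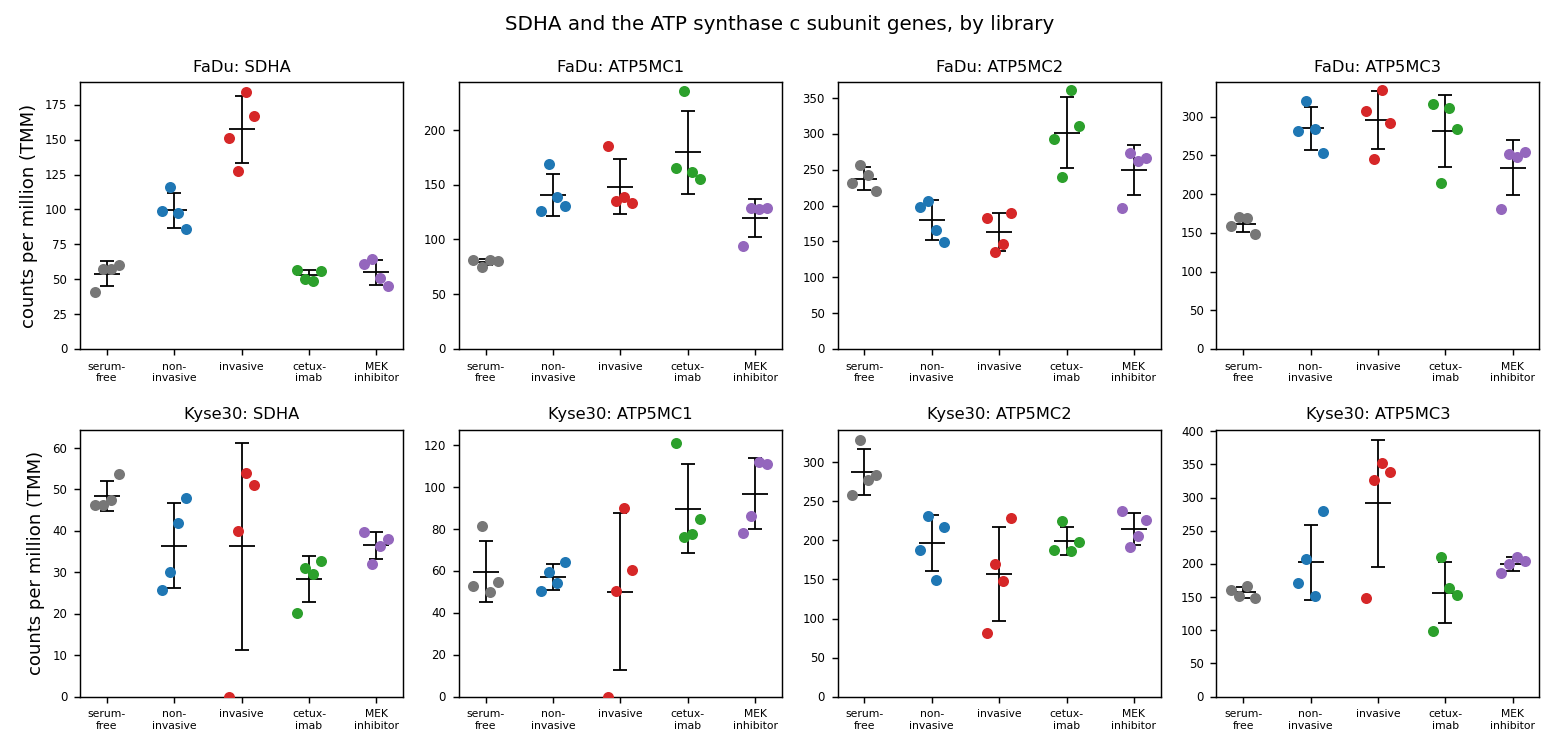
Levels (CPM, TMM-scaled) of SDHA, ATP5MC1, ATP5MC2 and ATP5MC3 in each library of FaDu (top) and Kyse30 (bottom), by group; points are libraries, and horizontal lines with error bars are group means ± SD (n = 4). In FaDu, SDHA is at 85.9 to 184 CPM in the selected cells and at 40.4 to 64.3 CPM in the other groups.

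In Kyse30 few nuclear members were called. Against serum-free spheroids 2 of 78 were higher and 0 lower in non-invasive cells (8.1% and 4.76% of all genes), 0 higher and 1 lower with cetuximab (1.88% and 1.25%), and 0 in either direction with the MEK inhibitor (2.29% and 1.61%), where edgeR gave 4 at an unadjusted p under 0.05 and DESeq2 called 1 higher (8.84% of all genes in either direction). Median log2 fold changes were 0.07, −0.02 and 0.15. The first of these changed sign with the scaling, to −0.04 with DESeq2's size factors and to −0.07 with the mitochondrial genes left out of the library sizes, which moved the median of all genes from 0.03 to −0.08 and −0.12. Without the shallow library the 3 comparisons gave 9 higher and 4 lower, 5 and 5, and 8 and 0, beside 15.9% and 11.9%, 8.73% and 6.42%, and 8.52% and 6.9% of all genes. Without the 3 libraries they gave 13 and 1, 7 and 6, and 8 and 1, beside 13.6% and 10.1%, 9.96% and 7.54%, and 9.75% and 7.83%.

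The 2 higher calls in non-invasive Kyse30 cells were in complexes III and I. UQCRB, which helps form the ubiquinone site of complex III, stood at 316, 335, 309 and 321 CPM in serum-free spheroids, 556, 523, 460 and 620 CPM in non-invasive cells, 494, 524, 584 and 626 CPM in invasive cells, 307, 435, 416 and 365 CPM with cetuximab and 385, 373, 345 and 332 CPM with the MEK inhibitor. Every library of selected cells, the shallow one included, was above every other library. UQCRB rose by 0.75 ± 0.16 (adjusted p = 0.00208). In FaDu it stood at 547 to 610 CPM in serum-free spheroids and 587 to 642 CPM in non-invasive cells, which overlapped.

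NDUFB9 stood at 156, 143, 108 and 168 CPM in serum-free Kyse30 and 278, 275, 246 and 316 CPM in non-invasive cells, without overlap (0.96 ± 0.24, adjusted p = 0.0101, and 0.0547 without the fourth non-invasive replicate). Its value in FaDu was 0.94. The lower call with cetuximab was NDUFB3, a membrane-arm subunit of complex I, at 35.9, 22.1, 33.0 and 13.1 CPM without serum and 0.518, 12.9, 4.74 and 1.75 CPM with cetuximab (−2.37 ± 0.64, adjusted p = 0.0399). It was lost in 6 of 9 fits that left out 1 library, with adjusted p up to 0.132, and the lowest value lies under the level of 3 counts. Kyse30 values of the other named nuclear members in non-invasive cells, none called, included 0.75 for COX6C (adjusted p = 0.0725), 0.22 for CYC1, 0.16 for NDUFB8, 0.14 for ATP5F1B, 0.02 for COX5A, −0.36 for SDHB and −0.66 for NDUFV1 (adjusted p = 0.0593).

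Between invasive and non-invasive cells, both from EGF-treated spheroids, few members were called. In FaDu 0 of 13 mitochondrial members were called, with 2 at an unadjusted p under 0.05 in edgeR and 0 calls by DESeq2, and log2 fold changes from −0.17 (MT-ND4L) to 0.61 (MT-ND1). Of the nuclear members 1 was higher and 0 lower, beside 0.668% and 2.36% of all genes, with 6 at an unadjusted p under 0.05. It was SDHA, at 0.66 ± 0.15 (adjusted p = 0.00932, and 0.0535 without the fourth non-invasive replicate), and DESeq2 also called 1 (5.09% of all genes in either direction). In Kyse30 edgeR and DESeq2 called 0 members of either genome, with 0 mitochondrial and 2 nuclear ones at an unadjusted p under 0.05 in edgeR, beside 0.0668% of all genes higher and 0.342% lower in edgeR and 3.32% in either direction in DESeq2. Without the shallow library 2 nuclear members were higher in invasive cells and 0 lower, with 0 mitochondrial calls, beside 0.729% and 1.37% of all genes. Without the 3 libraries 2 mitochondrial members were higher and 0 lower, beside 0.165% and 0.461%, and the median of the 13 was 0.95 against 0.11 with all libraries. The 2 non-invasive libraries kept had the lowest mitochondrial shares of their group, 3.17% and 3.96%. That choice in itself lowers the non-invasive side, so this fit is no separate evidence of a difference.

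Against non-invasive cells, few members were called with the inhibitors given with EGF when all libraries were used. The inhibitor groups were unselected, so in both lines these comparisons mix the inhibitor with the selection of cells. In FaDu cetuximab gave 0 mitochondrial calls (1 at an unadjusted p under 0.05 in edgeR, 0 by DESeq2, which called 12% of all genes) and 2 nuclear members higher and 1 lower, beside 3.64% and 4.93% of all genes. These were ATP5MC2, NDUFB2 (0.37 ± 0.11, adjusted p = 0.0392, lost in 6 of 8 fits that left out 1 library) and, lower, SDHA. The MEK inhibitor gave 1 mitochondrial member higher and 1 lower, and 2 nuclear members higher and 4 lower, beside 14.8% and 14.9% of all genes. MT-CO2 was higher by 0.57 ± 0.16 (adjusted p = 0.0083). MT-ND4L was lower, at −0.77 ± 0.19 (adjusted p = 0.00392) with 440, 663, 527 and 434 CPM. Both directions were opposite to those in non-invasive against serum-free cells, with which the comparison shares the non-invasive libraries. The limit on MT-ND4L counts given above holds here too. The nuclear calls were ATP5MC2 and NDUFB1 (0.55 ± 0.16) higher, and SDHA, NDUFS4 (−0.63 ± 0.21), NDUFB9 (−0.59 ± 0.14) and NDUFAB1 (−0.47 ± 0.16) lower. NDUFB9 stood at 668, 825, 722 and 696 CPM in non-invasive cells and 426, 515, 533 and 459 CPM with the MEK inhibitor, without overlap. NDUFS4 was lost in 3 and NDUFAB1 in 4 of 8 fits that left out 1 library.

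In Kyse30 cetuximab gave 0 members higher and, lower than in non-invasive cells, 2 mitochondrial ones and 1 nuclear one, beside 1.85% and 3.07% of all genes. The mitochondrial count was 2 without the shallow library as well, and 0 without the 3 libraries. MT-ND1 was at −1.35 ± 0.33 (adjusted p = 0.0169) and MT-CO1 at −1.30 ± 0.34 (adjusted p = 0.022). Non-invasive replicates 1 and 3 stood apart here, with 4789 and 4888 CPM of MT-CO1 against 1262 and 1674 CPM in the others. Without the 3 libraries high in MALAT1 they were at −0.25 (adjusted p = 0.587) and −0.21 (adjusted p = 0.719). NDUFB3 was the nuclear call (−2.40 ± 0.63, adjusted p = 0.0256, lost in 5 of 9 fits that left out 1 library). Without the shallow library 4 nuclear members were higher and 10 lower, beside 7.37% and 9.76%, and without the 3 libraries 0 and 12, beside 3.8% and 5.94%. The MEK inhibitor gave 0 mitochondrial calls (4 at an unadjusted p under 0.05 in edgeR, 0 by DESeq2, which called 8.99% of all genes) and 1 nuclear member lower, UQCRB (−0.59 ± 0.16, adjusted p = 0.0284), beside 1.65% higher and 2.91% lower of all genes. UQCRB was lost in 7 of 9 fits that left out 1 library and with DESeq2's size factors (adjusted p = 0.0745). Without the shallow library 4 nuclear members were higher and 2 lower with the MEK inhibitor, beside 5.84% and 8.55%, and without the 3 libraries 0 and 2, beside 3.94% and 5.84%, with 0 mitochondrial calls in either fit. The nuclear calls with the MEK inhibitor turned to the higher direction with other scalings, from 0 higher and 1 lower to 1 and 0 with DESeq2's size factors and 2 and 0 with the mitochondrial genes left out of the library sizes. The scaling moved the split of all calls in both comparisons, from 221 higher and 368 lower to 304 and 300 for cetuximab and from 198 and 348 to 258 and 266 for the MEK inhibitor.

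Differences between the lines were tested as the Kyse30 change minus the FaDu change. For non-invasive against serum-free cells 1 mitochondrial member was lower in this difference and 0 higher, and 6 nuclear members were lower and 1 higher, beside 6.2% and 9.47% of all genes. MT-ND4L differed by −1.39: it stood at 826, 848, 835 and 751 CPM in serum-free and 575, 513, 792 and 435 CPM in non-invasive Kyse30, against the rise in FaDu given above. What MT-ND4L counts measure is uncertain, as said there. The lower nuclear members were SDHA (−1.28 ± 0.41, adjusted p = 0.0261), NDUFA9, an accessory subunit of complex I (−1.10 ± 0.28, adjusted p = 0.00422), NDUFS3, a core subunit (−0.93 ± 0.30), NDUFV1 (−0.81 ± 0.24), NDUFS5 (−0.81 ± 0.20) and NDUFAB1 (−0.80). UQCRB was the higher one (0.67 ± 0.19, adjusted p = 0.0144). SDHA and NDUFS3 were each lost in 4 of 17 fits that left out 1 library. With the shallow library left out, 1 mitochondrial member was lower, and 15 nuclear members were lower and 2 higher, beside 10.8% and 13.8% of all genes. With all 3 left out, 9 mitochondrial members were lower, and 8 nuclear members were lower and 2 higher, beside 9.25% and 10.4%. NDUFA9 stood at 54.5 to 61.9 CPM in serum-free and 108 to 113 CPM in non-invasive FaDu cells, and at 49.6 to 73.8 and 45.4 to 63.2 CPM in Kyse30.

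For invasive against non-invasive cells 0 members differed between the lines, with 0 mitochondrial and 1 nuclear at an unadjusted p under 0.05 in edgeR and 0 by DESeq2 (1.19% of all genes), beside 0.142% of all genes higher and 0.0395% lower. The count was also 0 without the shallow library (0.443% and 0.142%) and without the 3 libraries (0.126% and 0.0237%). For cetuximab against non-invasive cells UQCRB was the 1 member called (−0.72 ± 0.19, adjusted p = 0.0494, lost in 12 of 17 fits that left out 1 library), beside 0.561% lower and 0.751% higher. For the MEK inhibitor UQCRB (−0.65 ± 0.19, adjusted p = 0.0412) and NDUFA9 (0.97 ± 0.27, adjusted p = 0.0278) were called, beside 2.83% and 2.27%, and were lost in 11 and 5 of 17 such fits. With the shallow library left out, cetuximab gave 2 nuclear members lower (1.43% lower and 2.3% higher of all genes), and the MEK inhibitor 5 higher and 2 lower (5.82% and 5.63%). With all 3 left out, cetuximab gave 2 nuclear members lower (1.16% lower and 1.34% higher), and the MEK inhibitor 1 mitochondrial member higher and 2 nuclear members higher and 2 lower (3.37% and 2.96%). These 3 tests share the non-invasive libraries. Those of the inhibitors also mix the inhibitor with the selection of cells.

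Other mitochondrial genes were read from lists written for this comparison. In non-invasive against serum-free FaDu cells 45 of 76 mitochondrial ribosomal protein genes were higher and 1 lower, with a median log2 fold change of 0.56, beside 25.3% and 24.7% of all genes. With the MEK inhibitor against non-invasive cells 0 were higher and 23 lower (median −0.30), beside 14.8% and 14.9%. Both comparisons share the non-invasive libraries, and the second mixes the inhibitor with the selection of cells. Of 17 genes for transcription and replication of mitochondrial DNA 6 were higher and 4 lower in non-invasive cells, beside the same 25.3% and 24.7%. TFAM, which packages mitochondrial DNA and starts its transcription, rose by 0.72 ± 0.14 (adjusted p = 9.16e-05), and POLRMT by 0.74 ± 0.24 (adjusted p = 0.0112). MTERF2, a member of the mitochondrial transcription termination factor family, fell by 2.32 ± 0.51 (adjusted p = 0.000426). TFAM and POLRMT were called higher in the comparison in which 4 mitochondrial mRNAs were called lower and 2 higher. A link between these values was not tested. With the MEK inhibitor against non-invasive cells TFAM was at −0.52 ± 0.14 (adjusted p = 0.00531) and POLRMT at −0.69 ± 0.23 (adjusted p = 0.0281). The shared libraries and the selection of cells limit these values too.

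Of 22 genes for processing and stability of mitochondrial RNA 8 were higher and 0 lower in non-invasive FaDu cells, and LRPPRC, which stabilises mitochondrial mRNAs, was at 0.32 (adjusted p = 0.0928). The counts of the following lists, too, stand beside 25.3% of all genes higher and 24.7% lower, and those of assembly factors, electron carriers and biogenesis regulators had about that share higher. Of 58 assembly factors 14 were higher and 7 lower, of 25 genes of the tricarboxylic acid cycle and pyruvate entry 10 and 1, of 18 genes for electron carriers and ADP/ATP exchange 5 and 3, and of 8 regulators of mitochondrial biogenesis 2 and 0. PDK2, a kinase that inhibits pyruvate dehydrogenase, fell by 2.68 ± 0.45 (adjusted p = 1.72e-05), PDSS1, of ubiquinone synthesis, rose by 1.87 ± 0.39 (adjusted p = 0.000232), and MYC was at 0.16 (adjusted p = 0.795). Of 6 subunits and paralogues that the symbol rule missed 3 were higher and 1 lower, COX4I1 among the higher ones (0.42 ± 0.12, adjusted p = 0.00653). Of the 2 nuclear RNAs that served as a sign of RNA quality 0 were called, with 1 at an unadjusted p under 0.05 in edgeR, and MALAT1 was at −0.09 (adjusted p = 0.83).

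The same lists in non-invasive against serum-free Kyse30 cells, beside 8.1% of all genes higher and 4.76% lower, had 2 of 76 mitochondrial ribosomal protein genes higher and 0 lower, and 0 of 17 genes for mitochondrial DNA called, with 0 at an unadjusted p under 0.05. TFAM (0.21), POLRMT (−0.67), LRPPRC (0.14) and COX4I1 (0.03) were not called. RNA processing genes had 2 higher and 0 lower, assembly factors 0 and 2, the tricarboxylic acid cycle list 2 and 1, electron carriers 1 and 1, biogenesis regulators 1 and 0, the missed subunits 1 and 1, and the nuclear RNAs 2 and 0. PDK4, another pyruvate dehydrogenase kinase, fell by 2.86 ± 0.55 (adjusted p = 0.000817), PDK1 rose by 1.91 ± 0.56 (adjusted p = 0.0248), MYC rose by 1.48 ± 0.40 (adjusted p = 0.0144), and MALAT1 rose by 2.21 ± 0.45 (adjusted p = 0.00155). Its share was 6.27% and 9.63% in non-invasive replicates 1 and 3 and 1.68% and 1.91% in the others, all above the 1.01% to 1.27% of serum-free spheroids.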

How the data were processed

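Polyadenylated RNA of 40 samples was read at its 3′ end with a QuantSeq kit (Lexogen, 3′ mRNA-Seq V2), per the labels' protocols, so a count does not grow with transcript length, and molecular identifiers are not named. The authors deposited 1 table of whole-number counts per gene, not normalized. STAR, HTSeq and GRCh38 (hg38) are named in the submitters' processing notes. Which versions, annotation and strand setting they used is not given in the sources used here. In the table the least counted gene had 142 counts in all.

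Groups came from the sample titles. Each column name matched 1 sample. No 2 replicates agreed within sampling noise (chi-square per degree of freedom 2.39 to 63.6). The main test was edgeR 4.0.16's quasi-likelihood F test in R 4.3.3 (limma 3.58.1), with TMM factors, the default filter by group and robust dispersions, on the 20 libraries of a line together, or all 40 for differences between lines. P-values were adjusted over 12131 genes in FaDu, 11976 in Kyse30 (12072 without the shallow library) and 12652 in both, with a threshold of 0.05. Levels are CPM with TMM factors; shares are plain percentages of a library's total. On simulated counts non-invasive against serum-free FaDu cells (11984 genes) had 50.5% of the 2-fold changes found again and 89.8% of the 4-fold ones. These were 14.1% and 84% among 11853 genes in Kyse30, and 13.1% and 56.6% for the difference between lines (12627 genes). Of the unchanged genes 10, 4 and 2 were called. Each simulation held 98 to 100 changed genes of each size, whereas the real FaDu comparison had 3070 genes called higher. The rates therefore need not hold for the data.

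Named were the 13 mitochondrial members, nuclear members picked by role, up to 5 called nuclear members with the highest and 5 with the lowest fold change per comparison, the 3 called genes with the largest change from the other lists in non-invasive against serum-free cells of each line, and TFAM, POLRMT, LRPPRC, MYC, MALAT1 and COX4I1; COX7A1, COX4I2, NDUFA4L2 and PPARGC1A were not analysed here. Other genes given as examples were picked after their values were seen. The members, the 9 lists and the tests were chosen with earlier results of these data known. Alternatives were DESeq2 1.42.0, its size factors in edgeR, no filter, library sizes without mitochondrial genes, a replicate block, leaving out each library, and, added after seeing the data, leaving out 3 Kyse30 libraries. Replicate numbers were not taken to pair samples across groups.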

Additional observations from a re-analysis of the deposited data

Results flagged for a closer look

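In groups of 4 libraries, 23 of 230 sets of values had a library whose gap to the rest passed Dixon's 95% limit, where chance gives about 11.5. In FaDu the second cetuximab replicate had 3051 CPM of MT-ND5 (1335 to 1534 in the others) and 236 CPM of ATP5MC1 (155 to 166). The second non-invasive replicate had 303 CPM of COX8A (226 to 233). The first MEK inhibitor replicate had 93.7 CPM of ATP5MC1 (128 to 129), 197 CPM of ATP5MC2 (263 to 273) and 181 CPM of ATP5MC3 (249 to 255). ATP5MC1 also stood out at 186 CPM in the first invasive replicate (133 to 139) and 75.3 CPM in the second serum-free one (80.6 to 81.4), and SDHA at 40.4 CPM in the first serum-free replicate (57.0 to 60.0).

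In Kyse30 the first invasive replicate, the shallow library, stood apart in 9 values. Its mitochondrial share was 8.86% (6.02% to 6.18% in the others) and its log2 ratio of mitochondrial to nuclear counts 4.02 (2.44 to 2.60). It had 11058 CPM of MT-ATP6 (7211 to 7644), 12824 of MT-ATP8 (6566 to 7249), 9265 of MT-ND2 (4733 to 5028) and 12199 of MT-ND4 (7503 to 7853), but 8804 of MT-CO3 (13304 to 13687), 148 of ATP5MC3 (326 to 352) and 92.3 of COX8A (369 to 409). Its mitochondrial genes thus stood apart in both directions. Elsewhere MT-ND6 was at 17.3 CPM in the third cetuximab replicate (24.5 to 25.3), MT-CO1 at 1239 CPM in the first MEK inhibitor replicate (1907 to 1985), MT-ND3 at 4909 CPM in the fourth (3405 to 3662), MT-ND2 at 6791 CPM in the third serum-free replicate (5274 to 5477) and ATP5MC1 at 81.5 CPM in the second (49.9 to 54.6).

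The lines differed, by the test of the difference itself, in 11 values. For non-invasive against serum-free cells these were MT-ND4L (−1.39), SDHA (−1.28), NDUFA9 (−1.10), NDUFS3 (−0.93), NDUFS5 (−0.81), NDUFV1 (−0.81), NDUFAB1 (−0.80) and UQCRB (0.67). For cetuximab against non-invasive cells it was UQCRB (−0.72), and for the MEK inhibitor NDUFA9 (0.97) and UQCRB (−0.65).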

How the results depend on the processing

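All 105 named calls kept their direction in every alternative. DESeq2 and the lack of a filter kept all of them past the threshold, DESeq2's size factors 104, library sizes without mitochondrial genes 101 and the replicate block 96. Leaving out 1 library at a time kept 66 in every fit; such fits have fewer samples.

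Counts of members called moved as follows; where no reason is given, the cause was not tested. DESeq2 called 6 nuclear members in place of 3 for FaDu cetuximab against non-invasive cells. In Kyse30 it called 5 in place of 2 for non-invasive against serum-free, 4 in place of 1 for cetuximab and for the MEK inhibitor against non-invasive and for cetuximab against serum-free, and 1 in place of 0 for the MEK inhibitor against serum-free. In these Kyse30 comparisons DESeq2 called 8.84% to 19.5% of all genes, and edgeR 3.13% to 12.9%. For the MEK inhibitor's difference between lines DESeq2 called 1 mitochondrial member in place of 0 and 5 nuclear in place of 2. For nuclear members of non-invasive against serum-free Kyse30, DESeq2's size factors gave 4 and library sizes without mitochondrial genes 5. These scalings turned the split of all genes from 970 higher and 570 lower to 813 and 757, and 765 and 823. The latter also gave 2 nuclear calls, both higher, for the Kyse30 MEK inhibitor against non-invasive cells (1, lower, before), 0 for cetuximab's difference between lines (1 before) and 1 for the MEK inhibitor's (2 before).

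With the replicate block, 0 mitochondrial members were called for Kyse30 cetuximab against non-invasive (2 before), 0 nuclear for cetuximab against serum-free (1 before) and 0 for cetuximab's difference between lines (1 before). The numbers do not pair the samples by the correlations of their deviations, which were over 0.1 in 4 of 24 cases in FaDu and 2 of 24 in Kyse30.

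Without the 3 Kyse30 libraries, an alternative chosen after seeing the data, non-invasive against serum-free gave 11 mitochondrial and 14 nuclear calls, invasive against non-invasive 2 mitochondrial, cetuximab against non-invasive 0 and 12, the MEK inhibitor against non-invasive 2 nuclear, and cetuximab and the MEK inhibitor against serum-free 13 and 9 nuclear (1 and 0 before). The differences between lines gave 9 mitochondrial calls for non-invasive against serum-free, 2 nuclear for cetuximab, and 1 mitochondrial and 4 nuclear for the MEK inhibitor. The log2 ratio moved to −1.69 for non-invasive against serum-free and from −0.48 to 0.35 for the MEK inhibitor against non-invasive, each with 2 non-invasive libraries left. In FaDu the ratio of non-invasive to serum-free was −0.51 on the median member.

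Leaving out 1 library, calls (mitochondrial, then nuclear) ranged in FaDu from 5 to 7 and 29 to 32 for non-invasive against serum-free, 0 to 1 nuclear for invasive and 2 to 4 for cetuximab against non-invasive, 2 to 3 and 5 to 8 for the MEK inhibitor against non-invasive, 6 to 8 and 35 to 44 for cetuximab and 0 to 5 and 17 to 35 for the MEK inhibitor against serum-free. In Kyse30 they ranged, in that order, from 1 to 7 and 1 to 13 (13 without the shallow library), 0 to 2 nuclear, 0 to 2 and 0 to 14, 0 to 3 and 0 to 6, 3 to 8 and 0 to 10, and 4 to 8 and 0 to 8. Differences between lines ranged from 1 to 2 and 5 to 17 for non-invasive against serum-free, 0 to 3 nuclear for cetuximab, and 0 to 1 and 0 to 7 for the MEK inhibitor. The log2 ratio ranged in FaDu from −1.11 to −0.81 for non-invasive, −1.41 to −1.10 for cetuximab and −1.08 to −0.58 for the MEK inhibitor against serum-free, and against non-invasive from 0.11 to 0.41 for invasive, −0.45 to −0.11 for cetuximab and −0.13 to 0.38 for the MEK inhibitor. In Kyse30 these were −1.32 to −0.56, −1.39 to −0.98, −1.43 to −1.24, −0.07 to 0.77, −0.59 to 0.18 and −0.79 to −0.02.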
